A study of Homo sapiens with 18 samples.

Results

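The core proteins of the spliceosome are described here by the transcripts of 56 genes in Burkitt lymphoma lines given a hairpin against FOXO3. The members are the genes whose symbol begins with SNRP, SNRNP, LSM, SF3A, SF3B or PRPF. They are 56 of 17561 genes listed in any of 3 deposited tables, and each of them is listed in every table. The rule used names and no measured value, although the fall of SNRPB was known when the rule was written. Of the 56 members, 43 carry a splicing or ribonucleoprotein term in the cellular component column of the deposited tables. LSMEM1 and LSMEM2 enter by their first letters and code for membrane proteins. LSM12, LSM14A and LSM14B belong to other RNA machinery, and LSM10 and LSM11 to the U7 particle that trims histone messages.

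The spliceosome removes introns from pre-messenger RNA and is built from small nuclear ribonucleoproteins (snRNPs), particles of 1 small nuclear RNA with its proteins. The U1 snRNP binds the start of an intron and the U2 snRNP its branch point. The U4/U6.U5 tri-snRNP then joins and brings the catalytic core. Sm proteins form a ring on most of these RNAs, and LSM2 to LSM8 form a related ring on U6. A minor spliceosome with U11 and U12 removes a rare class of introns. Lymphoma cells with high MYC are known from mouse models to depend on snRNP assembly.

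The study compared FOXO3 shRNA with scrambled shRNA in 3 established lines, BL-41, Namalwa and Jiyoye. Burkitt lymphoma arises from germinal centre B cells and is driven by MYC. Namalwa and Jiyoye carry Epstein-Barr virus and BL-41 does not. In each line the hairpin came from the lentiviral vector pRSI12-U6-shUbiC-TagRFP, in which a U6 promoter drives the hairpin, and transduced cells were sorted on day 4. The labels give 3 libraries for each of the 6 groups, 18 in all. Whether these grew as separate cultures is not stated, so p-values measure only their spread, and that spread may be technical. The number of hairpins against FOXO3 is not given in the sources used here. Other transcripts that a hairpin may bind were not measured separately, so loss of FOXO3 and other effects of the hairpin cannot be told apart. In bulk RNA, fewer cells and less RNA per cell cannot be told apart either.

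Each table gives 1 normalized signal per arm. Values of single libraries are not in it, and no SD can be given. Depth of single libraries is not in the tables, and the columns sum to 17282413 to 18459745 with FOXO3 shRNA and to 17065755 to 18108430 with scrambled shRNA. Fold changes are log2 ratios of the FOXO3 shRNA arm to the scrambled arm as deposited from DESeq2. They are read here as moderated towards 0, and the arm signals with them, since for most genes with a mean signal of 1 to 5 the recovered SE is smaller than counting error alone would give. If so, changes of low genes are understated. Counting error here takes the signals as read counts per library, and their scaling is not given. Standard errors (SE) were recovered from the deposited fold change and p. A gene is called at an adjusted p under 0.05. FOXO3 itself had a signal of 544.7 with FOXO3 shRNA and 944.5 with scrambled shRNA in BL-41, of 398.4 with FOXO3 shRNA and 850.5 with scrambled shRNA in Namalwa, and of 384 with FOXO3 shRNA and 471.2 with scrambled shRNA in Jiyoye, per the authors' deposited table. It was called in BL-41 and Namalwa and not in Jiyoye, where the adjusted p was 0.187 (DESeq2). All 10 B cell and germinal centre markers were listed in each line, with summed signals of 40614.9 to 97595 with FOXO3 shRNA and of 40278.2 to 95902.3 with scrambled shRNA. Summed signals of 5 myeloid markers were 331.1 with FOXO3 shRNA and 170.9 with scrambled shRNA in BL-41, and at most 206.6 in any arm of the other lines, where CD14 was called up in Jiyoye alone. T cell markers summed to 1.56 to 79.7 with FOXO3 shRNA and 1.42 to 50.4 with scrambled shRNA. The fibroblast marker listed had at most 146.0 with FOXO3 shRNA and at most 173.6 with scrambled shRNA, both in Jiyoye. Erythroid markers were below 1 in every arm, and no T cell, fibroblast or erythroid marker was called. In BL-41, 3 of these 5 myeloid markers rose and 5 of the 10 B cell markers fell, MYC among them, with a signal of 3961.9 with FOXO3 shRNA and 6674.4 with scrambled shRNA per the authors' deposited table. In BL-41 14.5% of all genes rose, and 20.7% of genes with a mean signal of 100 or more fell. All 10 B cell markers reached that mean in BL-41, and 1 of the 5 myeloid markers did. Of the B cell markers, 1 fell and none rose in Namalwa, and 2 rose and none fell in Jiyoye. The part of these marker changes in the changes of spliceosome genes was not tested.

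The promoters below are those of the member that fell in every line (SNRPB), a U2 member that rose in every line (SNRPA1), the member with a forkhead word (SNRNP27) and the member that moved in opposite directions between lines (SNRNP48). Each is the 250 bases before a transcription start, from RefSeq on GRCh38.p14, printed 5′ to 3′ on the gene's strand. Capitals mark GTAAACA, the core word of forkhead factors, or CACGTG, the E-box word of MYC, on either strand.
SNRPB, chr20:2470790-2471039, minus strand: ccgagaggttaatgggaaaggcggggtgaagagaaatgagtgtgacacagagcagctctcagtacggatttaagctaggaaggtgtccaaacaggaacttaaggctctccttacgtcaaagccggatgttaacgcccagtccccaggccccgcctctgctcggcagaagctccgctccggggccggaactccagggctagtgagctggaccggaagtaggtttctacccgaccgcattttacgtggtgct
SNRPA1, chr15:101295249-101295498, minus strand: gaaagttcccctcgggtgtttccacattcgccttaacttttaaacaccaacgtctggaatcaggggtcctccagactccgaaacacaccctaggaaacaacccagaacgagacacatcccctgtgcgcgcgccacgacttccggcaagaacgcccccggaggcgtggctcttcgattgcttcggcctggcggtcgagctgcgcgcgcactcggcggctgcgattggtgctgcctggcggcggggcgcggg
SNRNP27, chr2:69893706-69893955, plus strand: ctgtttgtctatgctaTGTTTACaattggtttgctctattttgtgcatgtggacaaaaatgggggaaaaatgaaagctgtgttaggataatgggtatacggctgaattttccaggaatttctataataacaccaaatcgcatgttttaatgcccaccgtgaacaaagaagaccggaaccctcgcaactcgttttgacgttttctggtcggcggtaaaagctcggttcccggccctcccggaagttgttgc
SNRNP48, chr6:7589948-7590197, plus strand: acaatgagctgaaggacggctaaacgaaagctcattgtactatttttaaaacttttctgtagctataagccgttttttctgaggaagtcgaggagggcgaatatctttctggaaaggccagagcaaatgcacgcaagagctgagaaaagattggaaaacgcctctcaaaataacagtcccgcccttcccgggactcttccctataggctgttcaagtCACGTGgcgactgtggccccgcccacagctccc
Over windows of 300 bases, which add 50 bases after the start, 1 of 59 promoters of 47 matched members held GTAAACA on either strand, against 3.42% of all 35116 promoters. That match lies in SNRNP27 and begins 234 bases before the start. CACGTG was found in 4 of the 59 promoters, against 7.26% of all, and begins 33 bases before the start of SNRNP48. The windows of SNRPB and SNRPA1 hold neither word. A match of letters is a description of these windows only.

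Over all members, risers outnumbered fallers in each line. DESeq2 called 17 of 56 members up and 7 down in BL-41, where 28.7% of all genes were called (14.5% up and 14.2% down). In Namalwa 13 members rose and 3 fell, where 6.41% of all genes were called (2.6% up and 3.81% down). In Jiyoye 10 members rose and 3 fell, where 17.4% of all genes were called (8.69% up and 8.7% down). A mean signal of 100 or more was reached by 54 of the 56 members, and of all genes at that level 40.7%, 9.61% and 25.5% were called in BL-41, Namalwa and Jiyoye. Among these 54 members, 29.6% rose in BL-41, 24.1% rose in Namalwa and 18.5% rose in Jiyoye. The shares of all such genes called up were 20.0%, 3.85% and 12.7%. Of the same members 7, 3 and 3 fell, where 20.7%, 5.76% and 12.8% of all such genes were called down. The median log2 fold change of the 54 members was 0.18, 0.18 and 0.04 in BL-41, Namalwa and Jiyoye, and that of all such genes was 0.00 in each line. Many of the called rises outside BL-41 were small. When a log2 change of 0.5 or more was also required, Namalwa kept 4 of its 13 risers and Jiyoye 3 of its 10. BL-41 kept 12 of its 17. The share of all genes that meets both limits was not counted, so these counts have no background to be read against.

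**Figure D1:**
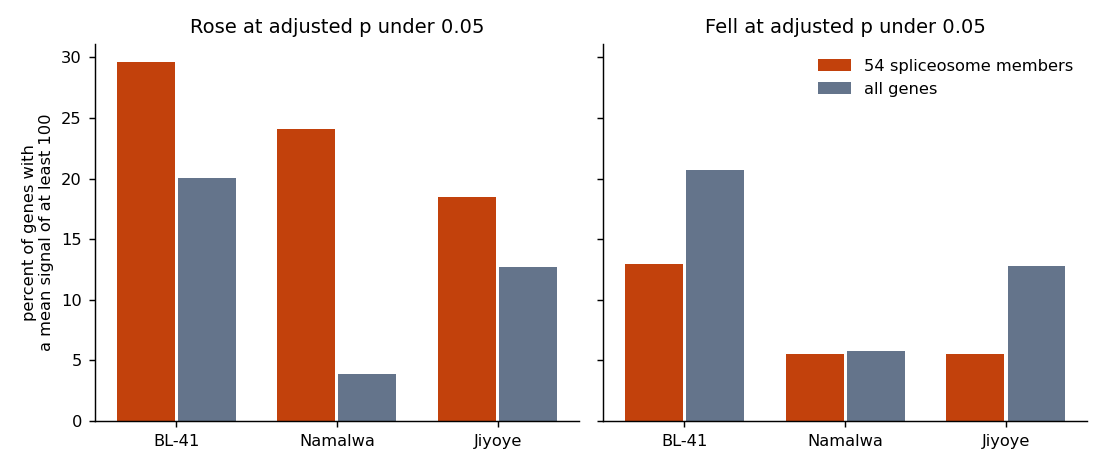
Percent of genes with a mean signal of at least 100 that rose or fell at an adjusted p under 0.05 (y axis) in each line (x axis), for 54 spliceosome members and for all genes. In Namalwa 24.1% of the members rose, where the share over all genes was 3.85%.

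The Sm ring is the shared core of the spliceosomal snRNPs. SNRPB, which codes for the Sm proteins B and B′, fell in all 3 lines and was the only member to do so. It lies at chr20:2461642-2470789 in GRCh38.p14, on the minus strand. The signal of SNRPB was 1311 with FOXO3 shRNA and 4560 with scrambled shRNA in BL-41 per the authors' deposited table, which leaves 28.7% of the scrambled level. In Namalwa the authors' deposited table gave SNRPB 1564.6 with FOXO3 shRNA and 4516.7 with scrambled shRNA, which leaves 34.6%. The values in Jiyoye were 799.7 with FOXO3 shRNA and 2956.2 with scrambled shRNA per the authors' deposited table, which leaves 27.1%. Every FOXO3 shRNA arm was thus below every scrambled arm. The log2 fold changes of SNRPB were -1.80 (SE 0.19), -1.53 (SE 0.14) and -1.89 (SE 0.17) in BL-41, Namalwa and Jiyoye per the authors' deposited table. Their adjusted p by DESeq2 were 6.89e-19, 1.39e-25 and 4.05e-26 there. Counted from the lowest, SNRPB ranked 8 of 9884, 3 of 9671 and 4 of 10122 genes whose mean signal was 100 or more. Differences of the SNRPB fold change between lines were -0.27 (SE 0.23) for BL-41 minus Namalwa, 0.09 (SE 0.25) for BL-41 minus Jiyoye and 0.36 (SE 0.22) for Namalwa minus Jiyoye. None passed a z test of the difference (adjusted p of 0.608, 0.924 and 0.512), which does not show that the falls were alike.

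Relative to gene length, SNRPB changed its place in the ring. With FOXO3 shRNA its signal per kilobase was 1182, 1422.4 and 716 in BL-41, Namalwa and Jiyoye, against 4111.9, 4106.1 and 2646.5 with scrambled shRNA. The median signal per kilobase of the other 6 ring genes, SNRPD1, SNRPD2, SNRPD3, SNRPE, SNRPF and SNRPG, was 1360.5, 1977.4 and 1261.6 with FOXO3 shRNA and 1232.6, 1655.3 and 1175.1 with scrambled shRNA. SNRPB therefore stood at 0.869, 0.719 and 0.568 times that median with FOXO3 shRNA, against 3.34, 2.48 and 2.25 times with scrambled shRNA. Among all 56 members it was number 21, 17 and 27 by signal per kilobase with FOXO3 shRNA, and number 1, 1 and 2 with scrambled shRNA.

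**Figure D2:**
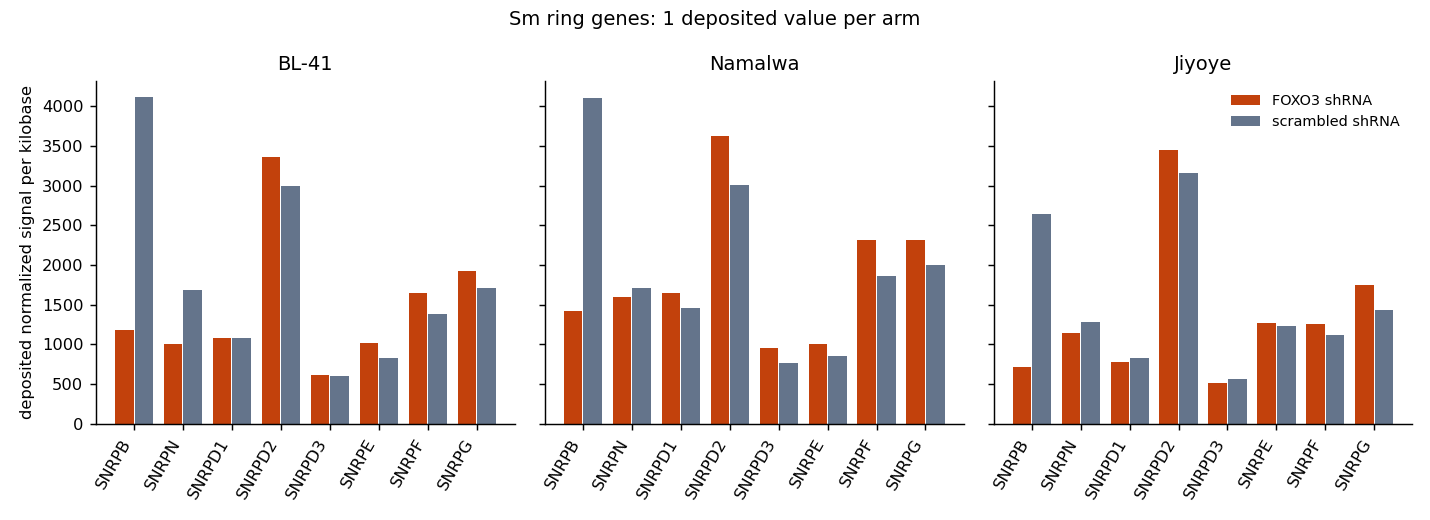
Deposited normalized signal per kilobase of gene length (y axis) for the Sm ring genes and SNRPN (x axis) in BL-41, Namalwa and Jiyoye, with 1 bar per arm and no error, since the tables hold 1 value per arm. SNRPB is at 1182, 1422.4 and 716 with FOXO3 shRNA and at 4111.9, 4106.1 and 2646.5 with scrambled shRNA, while SNRPD2 is the highest of the other ring genes in each arm.

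Of the 6 other ring genes, 1 rose in BL-41, 2 rose in Namalwa and none was called in Jiyoye. Over all genes with a mean signal of 100 or more, 20.0%, 3.85% and 12.7% rose in these lines. A set of 6 genes is small. SNRPE rose in BL-41, with a signal of 1652 with FOXO3 shRNA and 1333 with scrambled shRNA per the authors' deposited table (log2 fold change 0.31, adjusted p = 0.0385 by DESeq2). SNRPD3 and SNRPF rose in Namalwa, by 0.33 and 0.32 per the authors' deposited table (DESeq2 adjusted p = 0.0489 and 0.0122). With fold changes centred on the median gene, SNRPD3 was no longer called (adjusted p = 0.0538, z test on the recovered SE). None of these 6 ring genes was called in Jiyoye by DESeq2, where their fold changes lay between -0.13 and 0.28 per the authors' deposited table. SNRPN codes for SmN, a close relative of SmB best known from brain. It fell in BL-41, with a signal of 1589 with FOXO3 shRNA and 2665 with scrambled shRNA per the authors' deposited table (log2 fold change -0.75, SE 0.14, adjusted p = 4.43e-06 by DESeq2). SNRPN was not called in Namalwa (-0.10, adjusted p = 0.813) or Jiyoye (-0.18, adjusted p = 0.305) per the authors' deposited table (DESeq2). SNRPN and SNRPB share no word of 50 bases among their coding transcripts in GENCODE 44. SNRPN shares 23.9% of its exon bases with SNURF on the same strand, so its value is uncertain.

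The U1 snRNP recognises the start of introns. Of 5 members described there, 1 rose in BL-41, 2 rose in Namalwa and none was called in Jiyoye, and none fell in any line. Of all genes with a mean signal of 100 or more, 20.0%, 3.85% and 12.7% rose in BL-41, Namalwa and Jiyoye. The shares that fell were 20.7%, 5.76% and 12.8%. The 5 members described are too few to be set against these shares. PRPF40B, which codes for a relative of a yeast U1 protein, rose in BL-41 by 0.67 per the authors' deposited table (DESeq2 adjusted p = 0.00488). In Namalwa the risers were SNRPC, which codes for the U1 protein C, and PRPF39, with fold changes of 0.41 each per the authors' deposited table (DESeq2 adjusted p = 0.00212 and 0.01). SNRPA, which codes for the U1 protein A, had fold changes of -0.35, -0.03 and -0.41 in BL-41, Namalwa and Jiyoye per the authors' deposited table and was not called. SNRNP70, which codes for another U1 protein, had 0.30, 0.08 and 0.05 per the authors' deposited table and was not called either. PRPF40B and PRPF39 share exon bases with genes on the other strand (28.0% with FMNL3 and 13.3% with FKBP3), and no source used here says that reads were counted by strand.

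The U2 snRNP binds the branch point, and here SNRPA1, which codes for its A′ protein, rose in every line. It lies at chr15:101281510-101295248 in GRCh38.p14, also on the minus strand. SNRPA1 had a signal of 2379 with FOXO3 shRNA and 1089 with scrambled shRNA in BL-41, of 3605 with FOXO3 shRNA and 1883 with scrambled shRNA in Namalwa, and of 1504 with FOXO3 shRNA and 736.6 with scrambled shRNA in Jiyoye, per the authors' deposited table. In each line the FOXO3 shRNA arm was about double the scrambled arm, at 2.18-fold, 1.91-fold and 2.04-fold. On the log2 scale these are 1.13 (SE 0.13), 0.94 (SE 0.09) and 1.03 (SE 0.14), with adjusted p of 3.4e-16, 3.25e-22 and 8.85e-11 per the authors' deposited table (DESeq2). Counted from the highest, SNRPA1 ranked 111 of 9884, 16 of 9671 and 82 of 10122 genes whose mean signal was 100 or more. Differences between lines were 0.19 (SE 0.16), 0.10 (SE 0.19) and -0.09 (SE 0.17) for BL-41 minus Namalwa, BL-41 minus Jiyoye and Namalwa minus Jiyoye, and none passed the z test (adjusted p of 0.583, 0.873 and 0.908). SNRPB2 codes for the U2 protein B″, the partner of A′, and was not called, with fold changes of 0.31, 0.22 and 0.12 per the authors' deposited table. The ratio of SNRPA1 to SNRPB2 in signal per kilobase was 2.10, 3.63 and 2.18 with FOXO3 shRNA and 1.20, 2.21 and 1.16 with scrambled shRNA.

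SF3A and SF3B are the U2 subcomplexes that hold the branch point. SF3A2 rose in all 3 lines, with a signal of 3648 with FOXO3 shRNA and 2400 with scrambled shRNA in BL-41, of 3056 with FOXO3 shRNA and 2464 with scrambled shRNA in Namalwa, and of 2502 with FOXO3 shRNA and 1727 with scrambled shRNA in Jiyoye, per the authors' deposited table. Its log2 fold changes were 0.60 (SE 0.10), 0.31 (SE 0.09) and 0.53 (SE 0.15) per the authors' deposited table (DESeq2 adjusted p of 3.88e-08, 0.019 and 0.00376). The partners SF3A1 and SF3A3 were not called in any line. SF3B3 rose in BL-41, with a signal of 6815 with FOXO3 shRNA and 3233 with scrambled shRNA per the authors' deposited table (log2 fold change 1.08, SE 0.11, adjusted p = 5.86e-21 by DESeq2). In Namalwa it was 0.25 (adjusted p = 0.0581) and in Jiyoye -0.22 (adjusted p = 0.368) per the authors' deposited table (DESeq2). SF3B1, the subunit that is often mutated in blood cancers, had fold changes of 0.16, 0.07 and -0.08 per the authors' deposited table and was not called. SF3B2, SF3B4, SF3B5 and SF3B6 were not called in any line, with fold changes between -0.04 and 0.30 per the authors' deposited table.

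Large proteins drive the U5 snRNP and the catalytic core. PRPF8 is the scaffold of the active site, SNRNP200 is the helicase that unwinds U4 from U6, and PRPF6 bridges the tri-snRNP. All of them rose in BL-41, by 0.56, 0.59 and 0.51 per the authors' deposited table (DESeq2 adjusted p of 0.00246, 0.000142 and 0.00699). PRPF8 and SNRNP200 also rose in Namalwa, by 0.33 and 0.31 per the authors' deposited table (DESeq2 adjusted p of 0.0115 and 0.0387). SNRNP200 had a signal of 11714 with FOXO3 shRNA and 7763 with scrambled shRNA in BL-41, of 10116 with FOXO3 shRNA and 8153 with scrambled shRNA in Namalwa, and of 6279 with FOXO3 shRNA and 6137 with scrambled shRNA in Jiyoye, per the authors' deposited table. The arms in Jiyoye were thus close together, and no U5 member was called there. SNRNP40, a U5 protein with WD repeats, was not called in any line. Of the 4 U5 members, 3 rose in BL-41 and 2 in Namalwa. Of all genes with a mean signal of 100 or more, 20.0% and 3.85% rose there, and 25.5% were called in Jiyoye. A group of 4 is too small to read the lack of calls in Jiyoye against that share.

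In the U4/U6 group, PRPF3, PRPF4 and SNRNP27 rose in every line. PRPF3 and PRPF4 code for partner proteins of the U4/U6 snRNP. The signal of PRPF3 was 4995 with FOXO3 shRNA and 2237 with scrambled shRNA in BL-41, 2479 with FOXO3 shRNA and 1613 with scrambled shRNA in Namalwa, and 1061 with FOXO3 shRNA and 837.1 with scrambled shRNA in Jiyoye, per the authors' deposited table. PRPF4 had 1086 with FOXO3 shRNA and 494 with scrambled shRNA in BL-41, 1840 with FOXO3 shRNA and 1279 with scrambled shRNA in Namalwa, and 1423 with FOXO3 shRNA and 1140 with scrambled shRNA in Jiyoye, per the authors' deposited table. Both were thus over 2-fold higher in BL-41 and higher by less in the other lines. Log2 fold changes of PRPF3 were 1.16, 0.62 and 0.34 and those of PRPF4 were 1.14, 0.52 and 0.32 in BL-41, Namalwa and Jiyoye per the authors' deposited table. The largest adjusted p among these 6 values was 0.041, for PRPF4 in Jiyoye per the authors' deposited table (DESeq2). SNRNP27, a tri-snRNP protein, had 744.4 with FOXO3 shRNA and 473.8 with scrambled shRNA in BL-41, 1017 with FOXO3 shRNA and 736.8 with scrambled shRNA in Namalwa, and 1045 with FOXO3 shRNA and 549.4 with scrambled shRNA in Jiyoye, per the authors' deposited table. Its fold changes were 0.65 (SE 0.13), 0.47 (SE 0.10) and 0.93 (SE 0.12) per the authors' deposited table (DESeq2 adjusted p of 1.3e-05, 0.000481 and 1.22e-11), so the highest value was in Jiyoye. No pair of lines passed the z test of the difference for SNRNP27. The smallest adjusted p was 0.0954, for Namalwa minus Jiyoye (-0.46, SE 0.16). SNRNP27 shares 12.5% of its exon bases with MXD1 on the same strand. PRPF31, which stabilises the tri-snRNP and shares 22.0% of its exon bases with an antisense gene, was called in BL-41 alone, where it rose by 0.46 per the authors' deposited table (DESeq2 adjusted p = 0.00394). PRPF38A, which serves activation of the complex, fell in Jiyoye, with 935 with FOXO3 shRNA and 1294 with scrambled shRNA per the authors' deposited table (log2 fold change -0.47, adjusted p = 0.00138 by DESeq2). PRPF38B and the kinase gene PRPF4B were not called in any line.

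The LSM ring binds the end of U6, and with LSM1 in place of LSM8 it binds messages bound for decay. LSM3 rose in each line, by 0.48, 0.33 and 0.37 in BL-41, Namalwa and Jiyoye per the authors' deposited table (DESeq2 adjusted p of 0.00482, 0.0265 and 0.0393). Its signal was 979.1 with FOXO3 shRNA and 703.3 with scrambled shRNA in BL-41, 1048 with FOXO3 shRNA and 833.2 with scrambled shRNA in Namalwa, and 1339 with FOXO3 shRNA and 1039 with scrambled shRNA in Jiyoye, per the authors' deposited table. In Jiyoye LSM1 (0.47) and LSM2 (0.33) rose too per the authors' deposited table (DESeq2 adjusted p of 0.0102 and 0.0381), and LSM1 shares 26.1% of its exon bases with a long noncoding RNA on the other strand. LSM4, LSM5, LSM6, LSM7 and LSM8 were not called in any line, with fold changes between -0.25 and 0.43 per the authors' deposited table. LSM10 and LSM11 form the ring of the U7 snRNP with Sm proteins, and in Jiyoye 1 of them rose and the other fell. LSM10 rose in BL-41 (0.43, adjusted p = 0.00346) and Jiyoye (0.48, adjusted p = 0.0246), per the authors' deposited table (DESeq2). LSM11 fell in Namalwa (-0.58, adjusted p = 0.00149) and Jiyoye (-0.47, adjusted p = 0.0139), per the authors' deposited table (DESeq2). LSM12 fell in BL-41 (-0.53, adjusted p = 1.86e-06) and Namalwa (-0.35, adjusted p = 0.0056), per the authors' deposited table (DESeq2). LSM14A, a protein of cytoplasmic mRNA granules, fell in BL-41 by 0.26 per the authors' deposited table (DESeq2 adjusted p = 0.0277).

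The membrane protein gene LSMEM1 had the largest rise of any member, 2.12 in BL-41 per the authors' deposited table (SE 0.37, adjusted p = 4.04e-07 by DESeq2). Its signal there was only 59.3 with FOXO3 shRNA and 13.7 with scrambled shRNA per the authors' deposited table, and it shares 53.7% of its exon bases with another annotated gene. LSMEM1 was chosen for mention after its values were seen.

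In the minor spliceosome, 1 gene moved in opposite directions between lines. SNRNP48, a U11/U12 protein, had a signal of 600.5 with FOXO3 shRNA and 880.2 with scrambled shRNA in BL-41, of 739.2 with FOXO3 shRNA and 503.7 with scrambled shRNA in Namalwa, and of 823.6 with FOXO3 shRNA and 607.1 with scrambled shRNA in Jiyoye, per the authors' deposited table. The FOXO3 shRNA arm was thus the lower one in BL-41 and the higher one in the other lines. Its log2 fold changes were -0.55 (SE 0.13), 0.55 (SE 0.13) and 0.44 (SE 0.13) per the authors' deposited table (DESeq2 adjusted p of 0.000261, 0.000827 and 0.00995). SNRNP25 rose in BL-41 by 0.63 per the authors' deposited table (DESeq2 adjusted p = 0.000454). SNRNP35 fell in BL-41 by 0.41 per the authors' deposited table (DESeq2 adjusted p = 0.0416), and it shares 2063 of its 4693 exon bases with RILPL1 on the other strand. Of the genes of later steps, PRPF19, a ubiquitin ligase of the catalytic complex, fell in BL-41 by 0.37 per the authors' deposited table (DESeq2 adjusted p = 0.0482), and PRPF18 was not called in any line.

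**Figure D3:**
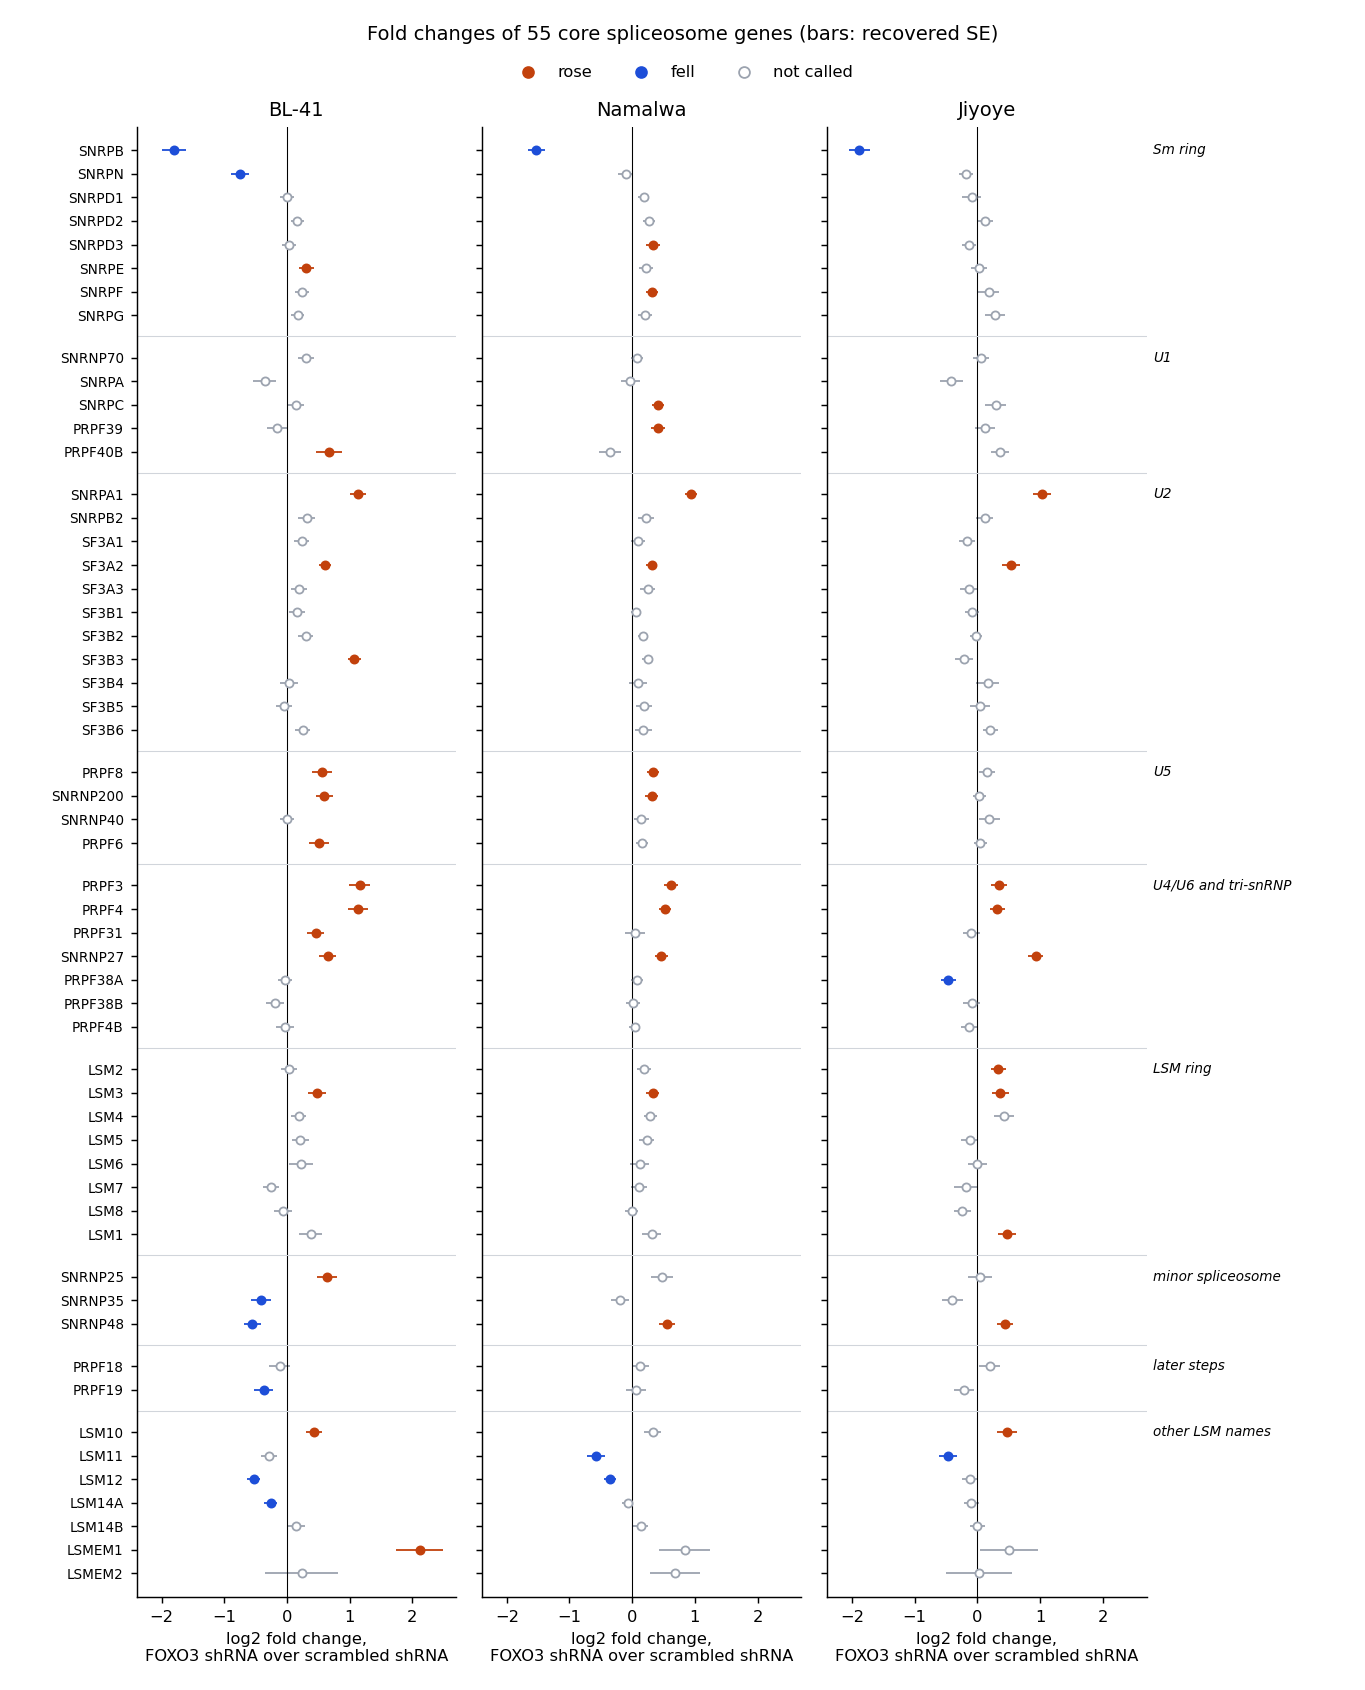
Log2 fold changes of FOXO3 shRNA over scrambled shRNA (x axis) for 55 members by role (y axis) in BL-41, Namalwa and Jiyoye, with bars of 1 recovered SE and filled points where DESeq2 called the gene. SNRPB lies at -1.80, -1.53 and -1.89, and SNRPA1 at 1.13, 0.94 and 1.03.

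Across lines, 24 of 56 members were called in none, 19 in 1, 5 in 2 and 8 in all 3. Shares of all genes by number of lines called were not counted. PRPF3, PRPF4, SNRNP27, SNRPA1, SF3A2 and LSM3 rose in every line, which is 10.7% of the members. Of 14549 genes listed in all tables, at any signal, 1.48% did so. In each line 54 of the 56 members reached a mean signal of 100, where calls were more frequent. The 2 shares are therefore not matched for signal. SNRPB is the 1 member that fell in every line, against 1.81% of the 14549 genes. SNRNP48 completes the 8. The fold change was positive in all lines for 26 members (46.4%) and negative in all lines for 8. Of the 14549 genes, 25.7% were positive and 24.5% negative in all lines. Of the 8870 genes whose mean signal reached 100 everywhere, 30.1% were positive and 27.0% negative. Pearson's r of the fold changes was taken across the 53 members other than SNRPB whose mean signal reached 100 everywhere. It was 0.58 between BL-41 and Namalwa, 0.53 between BL-41 and Jiyoye and 0.66 between Namalwa and Jiyoye. Over the 8870 genes it was 0.66, 0.62 and 0.60. These r describe genes that share libraries within a line and are not replicates.

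A z test of the difference of fold changes asked which members responded differently between lines. Of 56 members, it passed for 5 between BL-41 and Namalwa, for 6 between BL-41 and Jiyoye and for 1 between Namalwa and Jiyoye. The shares of all genes measured in both lines were 7.01%, 6.25% and 2.75%, and these include genes of low signal. The small counts of members are not far from those shares. SNRNP48 differed by -1.11 (SE 0.18, adjusted p = 9.2e-07) for BL-41 minus Namalwa and by -0.99 (SE 0.19, adjusted p = 2.88e-05) for BL-41 minus Jiyoye. SF3B3 differed by 0.82 (SE 0.14, adjusted p = 1.35e-06) and 1.29 (SE 0.18, adjusted p = 1.67e-09) for the same pairs. The fold change of PRPF4 was higher in BL-41 than in Namalwa by 0.61 and than in Jiyoye by 0.82 (adjusted p of 0.0261 and 0.00311). That of PRPF3 was higher in BL-41 than in Jiyoye by 0.82 (adjusted p = 0.00586), while BL-41 minus Namalwa did not pass (0.54, adjusted p = 0.0878). The fold change of SNRPN in BL-41 was lower than in Namalwa and in Jiyoye, with differences of -0.64 and -0.57 (adjusted p of 0.0153 and 0.0323).

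**Figure D4:**
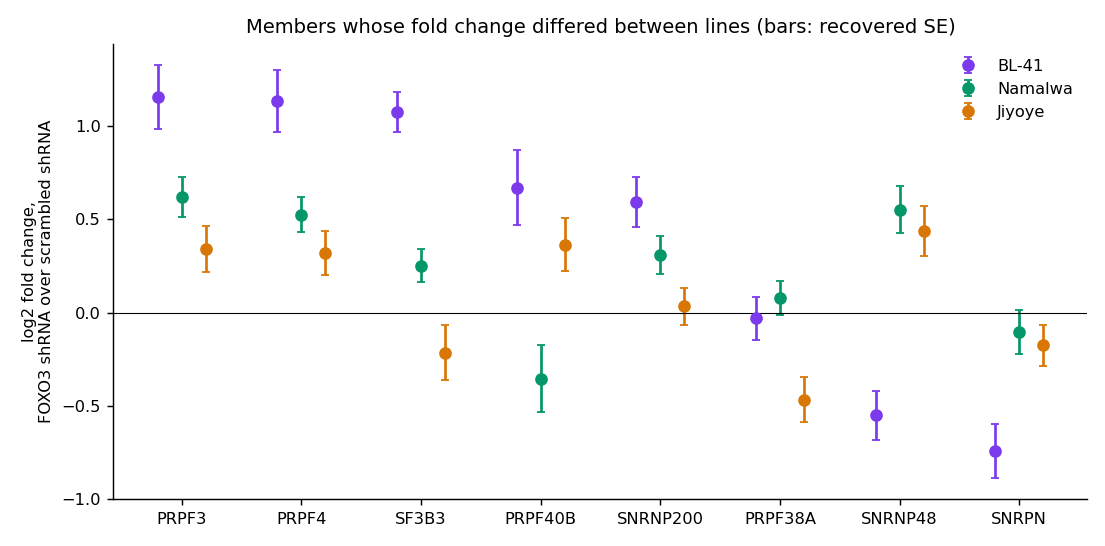
Log2 fold changes of FOXO3 shRNA over scrambled shRNA (y axis), with bars of 1 recovered SE, for the 8 members whose fold change differed between at least 1 pair of lines (x axis). SNRNP48 lies at -0.55 in BL-41, and at 0.55 and 0.44 in the other lines.

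Other genes of the splicing pathway, taken from lists chosen by function, are given as counts. Nearly all of them reached a mean signal of 100, and of all genes at that level 20.0%, 3.85% and 12.7% rose and 20.7%, 5.76% and 12.8% fell in BL-41, Namalwa and Jiyoye. Of 11 tri-snRNP and U5 partners, 6 rose in BL-41 and 4 each in Namalwa and Jiyoye, and none fell in any line, with medians of 0.28, 0.22 and 0.19. These are 54.5%, 36.4% and 36.4% of the list, beside the 20.0%, 3.85% and 12.7% of all such genes. SART1, a tri-snRNP assembly factor, rose in BL-41, Namalwa and Jiyoye by 0.58, 0.54 and 0.53 per the authors' deposited table (DESeq2 adjusted p of 5.58e-05, 3.86e-07 and 3.36e-05). The U4/U6 cyclophilin gene PPIH rose in the same order of lines by 0.69, 0.60 and 0.50, and TSSC4, which helps build the tri-snRNP, by 0.43, 0.43 and 0.62, per the authors' deposited table. The helicase gene DDX23 rose by 1.00 in BL-41 and by 0.38 in Namalwa, and had 0.19 in Jiyoye without a call, per the authors' deposited table. Of 20 U2 partners and factors of the 3′ splice site, 5 rose and 1 fell in BL-41, 3 rose and 1 fell in Namalwa, and 3 rose and 2 fell in Jiyoye. The counts of risers in BL-41 and Jiyoye were near the 20.0% and 12.7% of all such genes, and in Namalwa 3.85% of all such genes rose. The helicase genes DDX39A and DDX46 and the splicing factor gene SMNDC1 rose in all 3 lines. For BL-41, Namalwa and Jiyoye the authors' deposited table gave DDX39A 1.26, 0.40 and 0.61, DDX46 0.77, 0.50 and 0.42, and SMNDC1 0.41, 0.52 and 0.58 (largest adjusted p = 0.0195 by DESeq2, DDX39A in Namalwa). Of 26 genes listed for the PRP19 complex and catalytic steps, 7 rose and 2 fell in BL-41, 3 rose and 1 fell in Namalwa, and 1 rose and 2 fell in Jiyoye. Of all such genes 20.0%, 3.85% and 12.7% rose and 20.7%, 5.76% and 12.8% fell, so both counts in Jiyoye were below the shares of all genes. The helicase gene DHX38 rose by 0.99, 0.42 and 0.35 in BL-41, Namalwa and Jiyoye per the authors' deposited table. RBM22, which holds the catalytic RNA, fell in every line, with -0.48, -0.43 and -0.51 per the authors' deposited table. SYF2 rose in BL-41 by 0.72, and BUD31 rose in BL-41 and Namalwa by 0.35 and 0.45, per the authors' deposited table.

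Other genes load the Sm ring onto its RNA. Of 24 genes of snRNP assembly, 4 rose and 1 fell in BL-41, 2 rose and none fell in Namalwa, and 3 rose and 2 fell in Jiyoye, with medians of 0.10, 0.13 and 0.09. Of all genes with a mean signal of 100 or more, 20.0%, 3.85% and 12.7% rose, so the rises in BL-41 and Jiyoye were not more frequent than over all genes. GEMIN5, which reads the small nuclear RNA, rose in BL-41, Namalwa and Jiyoye by 0.64, 0.46 and 0.45 per the authors' deposited table. SMN1 rose in Namalwa by 0.31 per the authors' deposited table, and its near-identical copy SMN2 can share its reads, so it is uncertain. STRAP, a partner of the SMN complex, rose in both BL-41 and Jiyoye by 0.49, and GEMIN7 fell there by 0.62 and 0.58, per the authors' deposited table. Of 10 partners of the minor spliceosome, 2 rose in BL-41, 1 rose in Namalwa and 3 rose in Jiyoye, and none fell. In BL-41 this is the 20.0% found over all such genes, and in Namalwa and Jiyoye 3.85% and 12.7% of all such genes rose. PDCD7 and SCNM1 rose in BL-41 by 0.52 and 0.33, RNPC3 rose in Namalwa by 0.71, and ZCRB1 and PDCD7 rose in Jiyoye by 0.45 and 0.37, per the authors' deposited table.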

How the data were processed

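Messenger RNA of 18 libraries in 6 groups was compared within each of 3 lines. Per the submitters' processing notes, Bowtie2, RSEM and DESeq2 were used with hg38, and the design text adds SOAPnuke for read filtering. None of their versions is given. The authors deposited 1 normalized signal per arm and no value per library, and the scaling behind it is not given in the sources used here. The log2 fold changes, p-values and adjusted p-values are those the authors deposited from DESeq2, and the planned edgeR test could not be run without values per library. The log2 ratio of the arms equalled the deposited fold change (largest difference 1.39e-14). Lengths in bases are per the file headers.

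Each SE was recovered by dividing the deposited fold change by the normal quantile that belongs to its p. For 88.2%, 100% and 97.8% of genes with a mean signal of 1 to 5 in BL-41, Namalwa and Jiyoye it was below the counting error of 3 libraries per arm, so fold changes were treated as moderated, and SE and z tests are on that scale. Counting error was computed with the arm signals taken as read counts per library, which could not be checked. Differences between lines were tested with two-sided z tests, Benjamini-Hochberg adjusted over all genes in both tables. This step was also run on simulated fold changes whose noise was drawn from the same recovered SE. That run cannot show whether the SE are right, and it did not model moderation. The median SE, over genes whose mean reached 100, was 0.144, 0.127 and 0.149 in BL-41, Namalwa and Jiyoye, which limits the changes that could be called. Depth per library is not in the tables. Members, lists and tests were chosen with earlier results of these data known. Named members are SNRPB, SNRPN, those called in at least 2 lines, up to 4 largest rises and falls per line with a mean of at least 100, and the member with the smallest p per pair of lines. Of the 7 related lists, the 2 called genes with the smallest adjusted p per line are named. SYNC, which is no splicing gene, and NAA38, known as a subunit of an N-terminal acetyltransferase, had been listed by mistake and were left out of the PRP19 list and the snRNP assembly list after the data were seen (with them, 8 of 27 genes rose in the first list and 2 of 25 fell in the second in BL-41). Other members were named within their role group, and 1 member, kept in the counts over all members, is not reported here. Positions were matched by gene ID to RefSeq on GRCh38.p14 and exon overlaps come from GENCODE 44. The work used scipy 1.17.1 with pandas 2.3.3, numpy 2.4.6 and Python 3.11.15, and figures matplotlib 3.10.9.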

Additional observations from a re-analysis of the deposited data

Results flagged for a closer look

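Differences of the response between lines that passed the z test of the difference are listed here with their values, as log2 fold change of the first line minus that of the second. The test passed for 7.01%, 6.25% and 2.75% of all genes for BL-41 minus Namalwa, BL-41 minus Jiyoye and Namalwa minus Jiyoye. For BL-41 minus Namalwa the differences of members were 1.03 for PRPF40B, 0.61 for PRPF4, -0.64 for SNRPN, 0.82 for SF3B3 and -1.11 for SNRNP48. PRPF40B had 205.3 with FOXO3 shRNA and 129 with scrambled shRNA in BL-41, and 131.6 with FOXO3 shRNA and 168.2 with scrambled shRNA in Namalwa, per the authors' deposited table. It was called by DESeq2 in BL-41 and not in Namalwa. For BL-41 minus Jiyoye the differences were 0.82 for PRPF3, 0.82 for PRPF4, -0.57 for SNRPN, 1.29 for SF3B3, 0.56 for SNRNP200 and -0.99 for SNRNP48. PRPF38A was the member that differed between Namalwa and Jiyoye, by 0.55 (SE 0.15, adjusted p = 0.0169, z test). SNRNP48 was called in both lines of each of its pairs, in opposite directions. FOXO3 was not called in Jiyoye, and its part in these differences was not tested.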

How the results depend on the processing

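No paired analysis was possible because the deposited tables hold 1 value per arm, so neither the replicate block nor a fit without each replicate was run, and the edgeR alternative was not run for the same reason. At an adjusted p under 0.01, 9 members were called in Namalwa (6 rose) and 6 in Jiyoye (4 rose), and 4 fell in BL-41. With a log2 change of 0.5 or more also required, 6 were called in Namalwa (4 rose) and 4 in Jiyoye (3 rose, 1 fell). BL-41 kept 16 calls at that limit (12 rose, 4 fell). Shares of all genes at either limit were not counted, so these counts have no background to be read against. Without members that have no place in a spliceosomal snRNP, 1 fell in Namalwa. At an adjusted p under 0.01, 3 members differed for BL-41 minus Namalwa and 0 for Namalwa minus Jiyoye. For the latter pair 2 differed when p was adjusted over genes whose mean reached 100. Shares of all genes were not counted for these settings either. The lower counts follow from stricter thresholds or fewer members, and the higher one from fewer genes tested. Centring each line on its median gene, a shift of 0.00 on the log2 scale in each line, changed the direction or call of none of the 16 members named by rule. Among the other members it ended the call of SNRPD3 in Namalwa (adjusted p = 0.0538), which leaves 15 called and 12 risen there. Of the other results, the counts with p adjusted over better expressed genes, and those without 11 members that share over 10% of exon bases with another gene, an alternative chosen after seeing the data, stayed within 1.5 times of the reported count. The median fold changes of the members were 0.18, 0.18 and 0.04 with a mean of 100 or more, and 0.19, 0.18 and 0.03 after centring, in BL-41, Namalwa and Jiyoye. The smallest change called among members was that of LSM14A in BL-41, -0.26 per the authors' deposited table, and no smaller change of a member was called.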

Other observations

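Genes next to splicing were counted from lists chosen by function. The exon junction complex marks spliced messages. Of its 9 genes, 3 rose in BL-41, none was called by DESeq2 in Namalwa and 1 fell in Jiyoye. Of all genes with a mean signal of 100 or more, 20.0% rose in BL-41 and 12.8% fell in Jiyoye. ACIN1 and PNN rose in BL-41 by 0.64 and 0.58 per the authors' deposited table (DESeq2 adjusted p of 3.01e-05 and 0.000194). RBM8A, a core subunit of that complex, had a signal of 932.9 with FOXO3 shRNA and 1524.3 with scrambled shRNA in Jiyoye per the authors' deposited table (log2 fold change -0.71, adjusted p = 8.86e-06 by DESeq2). It was not called in BL-41 (-0.21) or Namalwa (0.09) per the authors' deposited table.

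Of 8 partners of the LSM1 ring in mRNA decay, 4 rose in BL-41, 1 rose in Namalwa and 2 rose in Jiyoye, and none fell. Of all genes with a mean signal of 100 or more, 20.0%, 3.85% and 12.7% rose in these lines. EDC4, a scaffold of decapping, rose in BL-41 and Jiyoye by 0.80 and 0.41 per the authors' deposited table. PATL1, which links decapping to the LSM1 ring, rose in BL-41 and Namalwa by 0.45 and 0.39, and the decapping activator DCP1A rose in BL-41 and Jiyoye by 0.33 and 0.58, per the authors' deposited table.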
